A study of Mus musculus with 6 samples.

Results

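Wnt signalling in mouse embryonic stem cells (mESCs) was read here through 9 genes, which were chosen by symbol as effectors and targets of the pathway: Ctnnb1, Tcf7, Tcf7l1, Lef1, Axin2, Sp5, Nkd1, Lgr5 and Dkk1. They are 9 of the 39017 genes in the deposited count tables, and all 9 were found in each of them. The polyA RNA-Seq data hold 6 libraries in 3 groups of 2. The Pol II degron mESCs come from V6.5 cells, carry the mAID-GFP tag on RPB1, the largest subunit of RNA polymerase II (the product of Polr2a), and were selected as a clonal line with OsTIR1 at the Rosa26 locus, so that each degron group stands for the same engineered line. Both degron groups received 1 μg/ml doxycycline for 12 h to switch on OsTIR1, the plant protein that targets mAID fusions for degradation once auxin is present, and were then left untreated or given 500 μM auxin (indole-3-acetic acid, IAA) for 6 h. The third group was wild-type V6.5 mESCs without the tag, and whether these cells received doxycycline is not given in the sources used here. All cells were grown with LIF on irradiated mouse embryonic fibroblasts, and the study's methods add that they were harvested after 2 passages of these feeders. The 2 libraries of a group are biological replicates by the study's methods, though the labels do not name separate cultures.

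In the canonical Wnt pathway a secreted Wnt protein binds a Frizzled receptor and an LRP co-receptor, which stops the destruction complex (Axin, Apc, Gsk3 and casein kinase) from marking β-catenin for degradation. β-catenin then enters the nucleus and binds the TCF/LEF factors, which keep target genes low without it and switch them on with it. In mESCs the pathway helps to hold the naive pluripotent state, in large part because β-catenin lifts repression by Tcf7l1 (also called Tcf3) from genes of the pluripotency network such as Esrrb, Nanog, Tfcp2l1 and Klf2. Several of the targets, among them Axin2, Nkd1, Dkk1 and Notum, encode inhibitors that feed back on the pathway.

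The TCF/LEF factors bind a short DNA word, and 4 exact forms of it were searched on either strand, with no ranking among them. They were CTTTGAA as well as CTTTGAT, and besides these CTTTGTA and the related CTTTGTT. The windows searched ran over 300 bases around each start site and were taken from RefSeq on build GRCm38.p6. CTTTGTT is also bound by SOX factors. The word was found in 16.9% of the 32851 windows of all genes, and 8 of the 9 Wnt genes had a window. Of their 13 windows 3 held a match (23.1%), and these belonged to Sp5, to Dkk1 and to 1 of 4 start sites of Lef1. The 250 bases before the start of Sp5 (chr2:70474673-70474922, plus strand) are shown with those before the start of Axin2 (chr11:108920099-108920348, plus strand), because Sp5 was the member that differed most between wild-type and untreated cells and Axin2 the target that differed least. Capitals mark matches of the word, and for Dkk1 only the stretch that holds both matches is shown (chr19:30549588-30549613, minus strand).
Sp5: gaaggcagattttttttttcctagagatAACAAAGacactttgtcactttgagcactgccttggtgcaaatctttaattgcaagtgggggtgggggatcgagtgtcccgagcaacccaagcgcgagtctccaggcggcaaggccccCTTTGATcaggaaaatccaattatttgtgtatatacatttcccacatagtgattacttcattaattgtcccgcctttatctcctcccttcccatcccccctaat
Axin2: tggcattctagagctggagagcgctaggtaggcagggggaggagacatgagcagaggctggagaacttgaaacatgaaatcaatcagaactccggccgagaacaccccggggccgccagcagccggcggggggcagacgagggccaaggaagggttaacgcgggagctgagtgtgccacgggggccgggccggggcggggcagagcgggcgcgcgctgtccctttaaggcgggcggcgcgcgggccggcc
Dkk1: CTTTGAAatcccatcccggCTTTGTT
In Sp5 the matches began 222 and 104 bases before the start site and the first was AACAAAG, the form of CTTTGTT on the other strand. In Dkk1 they began 117 and 98 bases before the RefSeq start site used here, and none of the matches overlapped. By GENCODE the Dkk1 gene reaches to position 30549665, so both of its matches lie inside the annotated gene. The window of Axin2 held none of these 4 words, which says only that the letters are not in this window. The windows of Nkd1, Tcf7 and Tcf7l1, which also differed between wild-type and untreated cells, held none either. The Nkd1 window lies around position 88527633, inside the gene, which begins at 88521354 by GENCODE, so the GENCODE start of Nkd1 was not searched. The Lef1 start site with a match, at 131156294, also lies inside its gene, which begins at 131110471. Dkk1, which holds matches, did not pass the test of that comparison given below. Any link between the words and the changes was not tested.

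The libraries were of even depth, with 14094022 to 15358714 counts on genes. Markers of mESCs were present in every library (8 of 8 genes, summed level 3332 to 6967 CPM, counts per 1000000 after TMM scaling), and the 10 markers of feeder fibroblasts summed to 195 to 199 CPM in untreated, 220 to 250 in auxin-treated and 146 to 152 in wild-type libraries. Col1a1 and Col1a2 held most of the untreated sum, at means of 65.1 and 67.3 CPM. The feeder markers Dcn and Lum had at most 4 and 1 counts in any library. The extraction record of the wild-type libraries names retinas, yet the 9 retina markers summed to only 1.81 to 3.87 CPM over the 6 libraries, and Crx and Rcvrn were at 0 in all of them. The 1 retina marker that was tested between wild-type and untreated cells, Prph2, had at most 21 counts in any library and was 2.45-fold higher in wild-type cells (edgeR adjusted p = 0.0420). Polr2a mRNA, which encodes the degraded protein, had 6623 and 6568 counts in untreated, 10396 and 10663 in auxin-treated and 6866 and 7129 in wild-type libraries. It rose 1.49-fold with auxin (edgeR adjusted p = 0.00117, where a gene is called at an adjusted p under 0.05 over all genes that pass a filter on low counts), and as an mRNA level it does not check the degradation of the protein. In such bulk libraries fewer cells of a type and less RNA per cell cannot be told apart.

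Levels per length of exon (RPKM, reads per kilobase of exon, scaled to depth) set the order of the 9 genes. In untreated cells Ctnnb1 stood at 137 ± 5.84 RPKM (mean ± SD, n = 2 here and below), Tcf7 at 41.3 ± 1.26 and Tcf7l1 at 15.7 ± 0.428. These 3 effectors were all well above the targets, of which Axin2 (3.26 ± 0.127) and Nkd1 (3.10 ± 0.00991) stood next to each other, at a distance close to the SD of Axin2. Sp5 (1.19 ± 0.408), Lef1 (0.481 ± 0.0286), Dkk1 (0.271 ± 0.0633) and Lgr5 (0.0203 ± 0.00975 RPKM) followed.

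**Figure D1:**
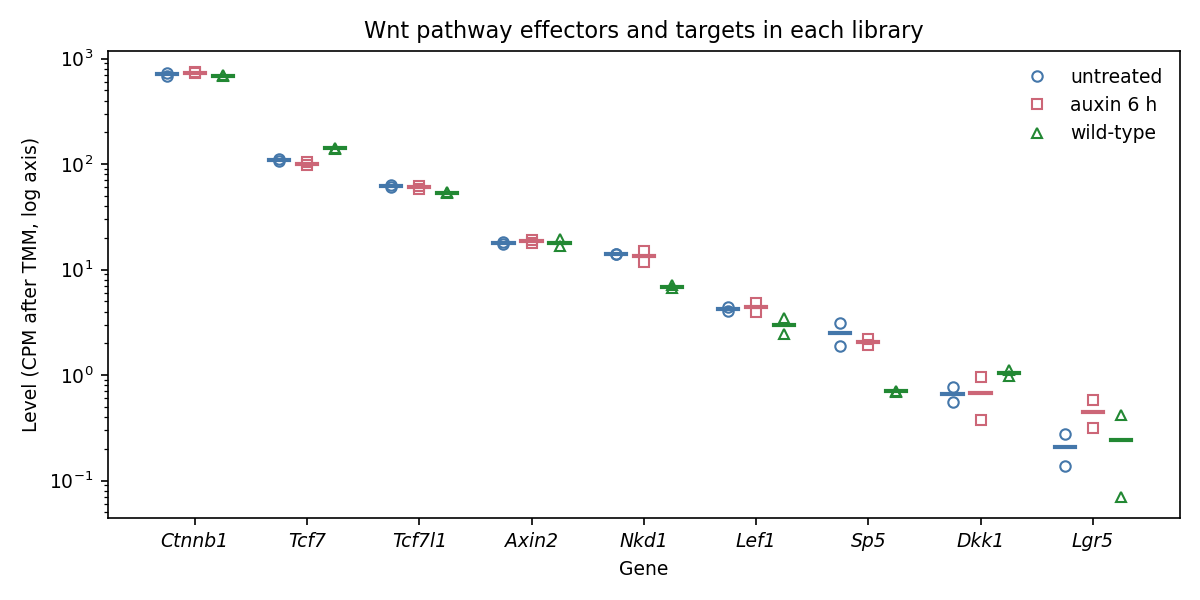
Levels of the 9 genes in each of the 6 libraries, in CPM after TMM scaling on a log axis; symbols are single libraries and short bars are means of 2. The untreated and auxin-treated libraries lie close together for most genes, while the wild-type libraries lie below both for Sp5 and Nkd1 and above both for Tcf7.

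The comparison of auxin-treated with untreated cells follows these mRNAs over 6 h of auxin, relative to the rest of the transcriptome. By the study's account Pol II protein is degraded in that time, but no wild-type library is labelled as given auxin. Effects of auxin itself and of Pol II loss therefore cannot be told apart here. None of the 8 members that could be tested passed: edgeR's quasi-likelihood test called 0 of 8, against 4.20% of the 16128 genes tested (2.56% higher and 1.64% lower). Of the 8, 0 had an unadjusted p under 0.05, beside 20.1% of all genes, and DESeq2 called 0. The median absolute log2 fold change of the members was 0.066, beside 0.137 for all genes tested. As only 4.20% of all genes were called, nothing is read from the 0 of 8. The genes behind these medians were not matched for level, so nothing is read from their difference either. All fold changes are relative to the typical gene of each library, because no spike-in was used here to scale them, so a fall of all mRNAs together would not be seen.

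Ctnnb1 encodes β-catenin itself (ENSMUSG00000006932, chr9:120929216-120960507 in mm10, plus strand, by GENCODE). It had 10518 and 10046 counts in untreated and 11898 and 11290 in auxin-treated libraries, and the groups overlapped once depth was taken into account. The log2 fold change was 0.07 with a 95% interval of -0.09 to 0.23. Ulk4, on the opposite strand, shares 10.04% of the 100-base stretches of Ctnnb1 transcripts, and as the sources used here do not say how strand was treated in counting, reads of the shared part could be counted for either gene or for none.

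Tcf7 (also called Tcf1) mainly acts as an activator with β-catenin (ENSMUSG00000000782, chr11:52252371-52283014, minus strand). Its counts were 1522 and 1612 in untreated and 1553 and 1608 in auxin-treated libraries. After scaling to depth both auxin-treated libraries lay below both untreated ones, which was so for 22.5% of all genes tested. The log2 fold change of -0.09 (95% interval -0.24 to 0.06) did not pass (edgeR adjusted p = 0.505), and it was the lowest p of any member.

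Tcf7l1, the main repressor of the family in mESCs (ENSMUSG00000055799, chr6:72626378-72789254, minus strand), had 864 and 911 counts in untreated and 931 and 954 in auxin-treated libraries. Here the groups overlapped at a log2 fold change of -0.02 (95% interval -0.18 to 0.14). Lef1, a TCF/LEF factor that is also a Wnt target (ENSMUSG00000027985, chr3:131110471-131224356, plus strand), had 58 and 64 counts against 77 and 62. Its groups overlapped too, with a log2 fold change of 0.08 and a wider interval of -0.38 to 0.55. The antisense gene Gm43352 shares 12.4% of the 100-base stretches of Lef1 transcripts, and how many of the Lef1 counts this touches was not tested.

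Among the targets, Axin2 (ENSMUSG00000000142, chr11:108920349-108950783, plus strand) encodes a scaffold of the destruction complex and is the most widely used readout of the pathway. It had 250 and 268 counts in untreated and 306 and 275 in auxin-treated libraries. The auxin-treated libraries were not set apart once depth was taken into account, at a log2 fold change of 0.06 (95% interval -0.18 to 0.30). Nkd1 (ENSMUSG00000031661, chr8:88521354-88594884, plus strand), which binds Dishevelled and dampens signalling, had 203 and 205 counts against 189 and 233. The auxin-treated libraries thus lay on either side of the untreated ones, and the log2 fold change was -0.05 (95% interval -0.36 to 0.25).

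Some members were scarce enough that counting error limits what can be said. Sp5, a zinc-finger factor that acts on Wnt target genes (ENSMUSG00000075304, chr2:70474923-70477729, plus strand), had 27 and 45 counts in untreated and 31 and 34 in auxin-treated libraries. The log2 fold change of -0.25 came with an interval of -0.91 to 0.41, so neither a fall nor a rise of moderate size was detectable at this depth. Dkk1, a secreted antagonist that binds the LRP co-receptors (ENSMUSG00000024868, chr19:30545863-30549665, minus strand), had 11 and 8 counts against 6 and 15, and its interval ran from -1.09 to 1.18. Lgr5, a receptor for R-spondins and a stem cell marker in the intestine (ENSMUSG00000020140, chr10:115450311-115587780, minus strand), had 4 and 2 counts in untreated, 5 and 9 in auxin-treated and 1 and 6 in wild-type libraries. It did not pass the filter on low counts and was not tested.

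**Figure D2:**
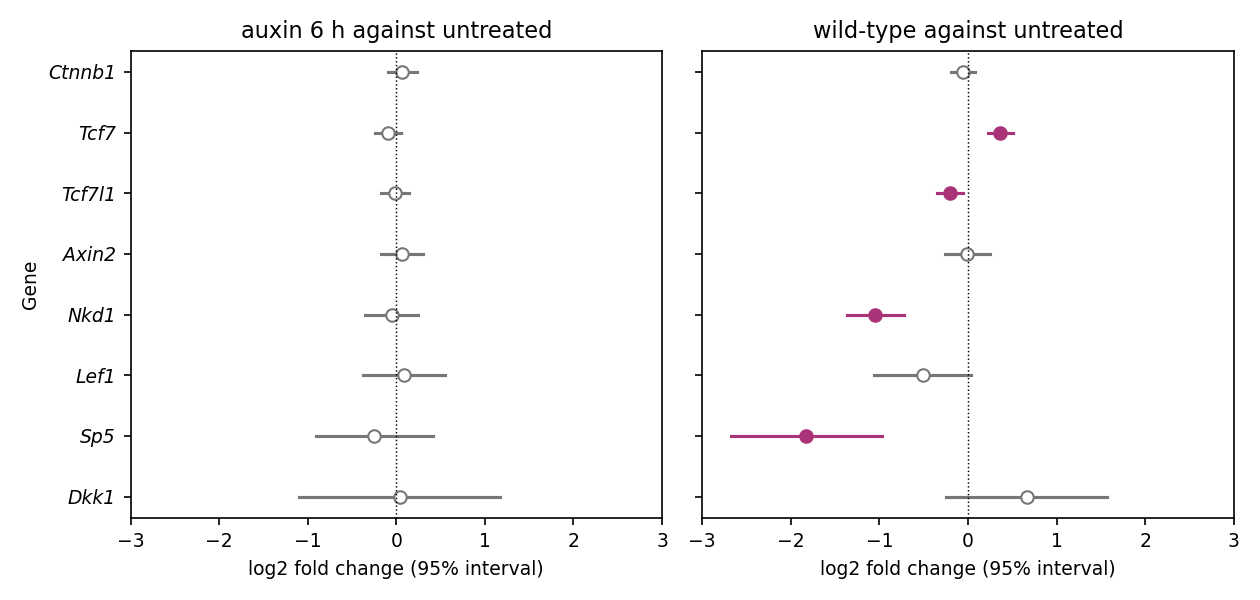
Log2 fold changes of the 8 tested genes, relative to the typical gene, with 95% intervals: auxin-treated against untreated cells on the left, wild-type against untreated cells on the right. Filled points passed the edgeR test at an adjusted p under 0.05; there were 0 on the left and 4 on the right, Tcf7 above 0 and Tcf7l1, Nkd1 and Sp5 below.

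The wider pathway was followed with 100 further genes listed by role, of which 85 could be tested. With auxin 3 rose and 3 fell, 7.06% of the 85 beside the 4.20% of all genes (2.56% higher and 1.64% lower), so the genes are given one by one and nothing is read from the count. The genes that rose were Fzd8 and Fzd2, Frizzled receptors, and Bcl9l, a co-activator that bridges β-catenin to Pygopus. Fzd8 had 97 and 88 counts without and 176 and 190 with auxin, which is 0.88 on the log2 scale (95% interval 0.54 to 1.22, edgeR adjusted p = 0.00904). Fzd2 (732 and 675 counts to 943 and 1038) rose by 0.39 on the log2 scale (edgeR adjusted p = 0.0230), and Bcl9l (628 and 524 to 788 and 878) by 0.43 (edgeR adjusted p = 0.0339). Without the second auxin-treated library none of the 3 was called (edgeR adjusted p = 0.101, 0.274 and 0.288 in the same order), while their log2 fold changes stayed at 0.80, 0.30 and 0.33. DESeq2 called neither Fzd2 nor Bcl9l, at 0.38 and 0.42. With scaling to mitochondrial mRNAs none of the 3 was called either, and relative to the median gene their log2 fold changes were then 0.88, 0.38 and 0.41. Taking off the median removes the shared shift of the scaling, so these values are no check of it. Of 8 tested feeder fibroblast markers 1 (Col1a2) rose as well, by 0.36 on the log2 scale, and the part of these cells in the rise was not tested.

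The 3 genes that fell all belong to the 4 listed genes that Tcf7l1 is known to repress, beside 1.64% lower of all genes tested. Nanog, a core pluripotency factor, had 6332 and 6531 counts without and 4760 and 4500 with auxin, which is -0.58 on the log2 scale (95% interval -0.73 to -0.43, edgeR adjusted p = 0.000920). The auxin-treated libraries were clearly the lower pair, and the call held in 13 of 13 other settings. Klf2 and Esrrb, pluripotency factors too, fell by 0.51 (edgeR adjusted p = 0.0116) and 0.54 (edgeR adjusted p = 0.0130) on the log2 scale, while the fourth gene, Tfcp2l1, had 3426 and 3975 counts against 3503 and 3262 and did not pass (edgeR adjusted p = 0.109). Without the first auxin-treated library the edgeR adjusted p-values of Klf2 and Esrrb were 0.158 and 0.187, without the second that of Esrrb was 0.0634, and DESeq2 did not call Esrrb. Without the filter on low counts Nanog was the only one of the 6 genes that edgeR called. Nanog and Esrrb are also among the 8 mESC markers, of which 4 were called lower. The other called markers, Sox2 (-0.78) and Zfp42 (-0.65 on the log2 scale), are not on the list of genes repressed by Tcf7l1. Tcf7l1 mRNA itself, as given above, did not pass, and its whole interval lay within 0.18 of no change on the log2 scale. The part of Tcf7l1 in the fall of these genes was not tested.

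Other listed roles held no call with auxin in edgeR: 0 of 13 ligands, 0 of 7 genes of the R-spondin axis and 0 of 8 extracellular inhibitors passed. The same held for 0 of 11 genes listed for the destruction complex or its control and 0 of 7 other targets. As only 4.20% of all genes tested were called, nothing is read from these counts. Over the whole list 19 of 85 genes had an unadjusted p under 0.05, beside 20.1% of all genes tested, and DESeq2 called 3. A few ligand genes too scarce to be tested, picked after their values were seen, had more reads with auxin: Wnt1 had 1 and 2 counts in untreated, 8 and 8 in auxin-treated and 0 and 0 in wild-type libraries. For Wnt9b the counts were 2 and 1, 12 and 7, and 0 and 2. Among the 1786 genes with 1 to 3 counts in each untreated library, both auxin-treated libraries lay above both untreated ones for 29.5% and below for 26.1%. At or under 3 counts in all 6 libraries were 5 listed genes: Cer1, Dkk4, Rspo2, Sost and Wnt2.

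The comparison of wild-type with untreated degron cells sets libraries of the engineered line, before any auxin, beside those of wild-type V6.5 cells. It shares the untreated libraries with the comparison above. The wild-type libraries came in a separate table, and cell line, clone, doxycycline and time of library preparation cannot be told apart here. Of the 8 tested members 4 differed: Tcf7 was higher in wild-type cells, and Tcf7l1, Nkd1 and Sp5 were lower. That is 4 of 8, beside 60.6% of the 15778 genes tested (29.9% higher and 30.7% lower), so the count is no result about the Wnt genes, and their sizes are given as a description of each gene. Mitochondrial mRNAs made up 0.342% to 0.441% of counts in the degron libraries and 1.50% to 1.53% in the wild-type ones, so that scaling to them would move the median of all genes by -2.10 (log2) and put every tested member lower in wild-type cells. Higher and lower therefore mean relative to the typical gene. Relative to that moved median Tcf7 was at 0.38 and Sp5 at -1.78. Taking off the median removes the shared shift again, so these values are no check of the scaling.

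Sp5 differed most. It had 10 and 10 counts in wild-type libraries against 27 and 45 in untreated ones, below every degron library. That is 3.54-fold lower (95% interval 1.96 to 6.39, edgeR adjusted p = 0.00174). Nkd1 had 94 and 102 counts in wild-type against 203 and 205 in untreated libraries, again below all 4 degron libraries, and was 2.07-fold lower (95% interval 1.65 to 2.58, edgeR adjusted p = 8.71e-05). Both calls held in 13 of 13 other settings, of which mitochondrial scaling called every tested member lower and is no check.

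Axin2 did not pass the test. Its 274 and 238 wild-type counts enclosed the untreated 250 and 268, and the log2 fold change was -0.01 with a 95% interval of -0.26 to 0.25. The 3 targets can be set against each other within a library, where no scaling enters. For each Axin2 count there were 0.812 and 0.765 Nkd1 counts in untreated, 0.618 and 0.847 in auxin-treated and 0.343 and 0.429 in wild-type libraries. The same ratio for Sp5 was 0.108 and 0.168, 0.101 and 0.124, and 0.0365 and 0.0420. In both ratios the wild-type pair was the lowest, while the degron groups overlapped.

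Lef1 and Dkk1 did not pass. Lef1 had 35 and 50 counts in wild-type libraries, below all 4 degron libraries, with a log2 fold change of -0.51 (95% interval -1.06 to 0.04, edgeR adjusted p = 0.0970). Dkk1 had 14 and 16 counts, above both untreated libraries, at 0.66 (95% interval -0.25 to 1.57). Libraries that did not overlap were common in this comparison (81.1% of all genes tested). For Ctnnb1, with 9736 and 9903 wild-type counts, the log2 fold change was -0.06 (95% interval -0.19 to 0.08).

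The DNA-binding partners shifted in opposite directions. Tcf7 had 2020 and 1988 counts in wild-type libraries, more than in any degron library, and was 1.29-fold higher (95% interval 1.17 to 1.42, edgeR adjusted p = 0.000380). Tcf7l1, with 760 and 772 counts, was the lowest in wild-type cells and 1.15-fold lower (95% interval 1.04 to 1.28, edgeR adjusted p = 0.0244). That second call was lost in some settings: the adjusted p was 0.177 by DESeq2, 0.0536 by edgeR without the filter, and 0.190 and 0.166 by edgeR without the first or the second wild-type library. The log2 fold change itself hardly moved, at -0.20 as reported and -0.19, -0.20, -0.19 and -0.20 in these settings. The ratio of the pair within a library, per length, was 2.63 and 2.65 in untreated, 2.49 and 2.52 in auxin-treated and 3.97 and 3.85 in wild-type libraries. The 3 groups did not overlap in this ratio, and the gap between degron and wild-type cells was far larger than that between the degron groups.

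**Figure D3:**
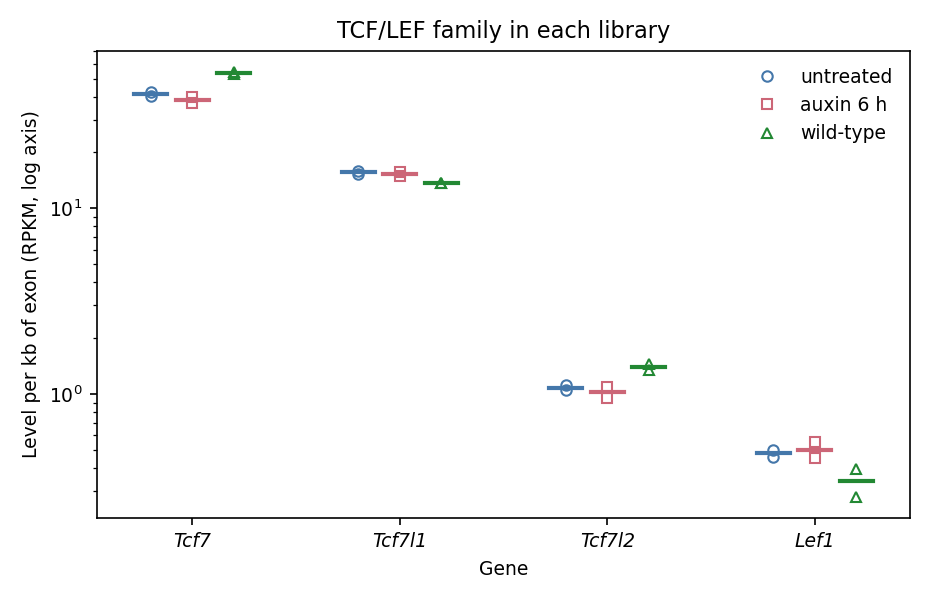
Levels of the TCF/LEF family per length of exon (RPKM, log axis) in each of the 6 libraries; symbols are single libraries and short bars are means of 2. Tcf7 stands highest in all 3 groups and Tcf7l1 second; in wild-type cells, on this scale relative to the typical gene, Tcf7 is higher at 52.9 and 54.2 RPKM and Tcf7l1 lower at 13.7 in both libraries.

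Tcf7 and Tcf7l1 together made up nearly all of the family's mRNA per length. Tcf7 held 70.5% and 70.7% of it in untreated, 69.2% and 69.8% in auxin-treated and 78.0% and 77.2% in wild-type libraries, and Tcf7l1 held 26.8% and 26.7%, 27.8% and 27.7%, and 19.6% and 20.1%. Lef1 held 0.802% and 0.838% in untreated, 1.02% and 0.804% in auxin-treated and 0.404% and 0.580% in wild-type libraries. Tcf7l2, the remaining member of the family, held between 1.69% and 2.12%. Against untreated cells Tcf7l2 was called higher in wild-type cells (log2 fold change 0.36, edgeR adjusted p = 0.0479), and the call held in 4 of 13 other settings.

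The wider list held 24 genes that were higher and 23 that were lower in wild-type cells (55.3% of 85, beside the 60.6% of all genes, 29.9% higher and 30.7% lower). Nothing is read from the counts of called genes by role, here or in the paragraphs below. Both genes of ligand secretion were lower: Wls, which carries Wnt proteins to the cell surface, had 1696 and 1508 counts in untreated and 197 and 241 in wild-type libraries, a 7.26-fold difference (95% interval 6.21 to 8.49, edgeR adjusted p = 2.51e-09). Porcn, the enzyme that attaches their lipid, went from 887 and 680 to 269 and 285 counts, 2.81-fold lower. Of 13 tested ligands 5 were lower, among them Wnt9a (622 and 479 against 190 and 161 counts, 3.11-fold) and Wnt4 (186 and 121 against 49 and 53 counts, 2.99-fold), which had the smallest p-values. The scarcer Wnt8a (24 and 34 against 6 and 1 counts, 7.97-fold) and Wnt10b (41 and 35 against 12 and 8 counts, 3.74-fold) showed larger folds and were added after their values were seen. Only 1 tested ligand, Wnt3a, was higher (11 and 12 against 26 and 33 counts).

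Receptors went both ways, with 5 of 12 higher and 2 lower, beside 29.9% and 30.7% of all genes. Fzd5 (1139 and 1417 counts in untreated, 3134 and 3269 in wild-type libraries) was 2.53-fold higher, and Fzd10 was higher by 0.90 on the log2 scale. Fzd2 (236 and 296 wild-type counts, log2 fold change -1.39) and Fzd6 (-0.93) were lower. In the R-spondin axis, which controls how much Frizzled stays at the surface, 4 of 7 were higher and 2 lower, beside the same shares. Lgr4, a receptor for R-spondins, went from 822 and 750 to 1557 and 1623 counts (2.04-fold) and Znrf3, a ligase that removes Frizzled, was higher by 0.41. The related ligase Rnf43 (84 and 81 against 31 and 44 counts, log2 fold change -1.12) and Rspo3, an R-spondin with 14 and 28 against 3 and 0 counts, were lower. The ratio for Rspo3 was 13.8 with an exact counting interval of 4.42 to 69.7.

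Inside the cell the genes also went both ways. Of 11 genes listed for the destruction complex or its control 4 were higher and 3 lower, beside 29.9% and 30.7% of all genes. Apc (0.51) and Tnks2 (0.32) were among the first and Fbxw11 (-0.37) and Tnks (-0.22) among the second, all as log2 fold changes. Both Dvl1 (-0.20) and Dvl2 (-0.21), which relay the signal from Frizzled, were lower. None of 9 partners of β-catenin was called by edgeR (2 had an unadjusted p under 0.05, beside 64.6% of all genes), which include E-cadherin (Cdh1, -0.05). Co-repressors of the Groucho family split, with Tle4 (642 and 629 against 1092 and 1145 counts, 0.83) and Tle1 (0.50) higher and Tle2 (-0.98) lower. Extracellular inhibitors held 2 higher of 8 and none lower, beside the same shares of all genes. The higher ones were Sfrp1 (522 and 727 against 1940 and 2006 counts, 3.18-fold) and Sfrp2 (0.81), both of which bind Wnt proteins. Of the inhibitors within the cell or at its membrane, Dact1 (0.63) and Apcdd1 (0.76) were higher and Dact2 (-0.37) lower.

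Of 7 other known targets 4 were lower in wild-type cells and 1 was higher, beside 30.7% and 29.9% of all genes. T (Brachyury), a mesoderm factor that Wnt induces in the primitive streak, had 163 and 267 counts in untreated, 235 and 286 in auxin-treated and only 6 and 8 in wild-type libraries, a 29.9-fold difference between wild-type and untreated cells (95% interval 17.6 to 51.0, edgeR adjusted p = 4.79e-07). Cd44, an adhesion receptor, was 2.93-fold lower (355 and 332 against 107 and 126 counts), and Ccnd1, a cyclin of the G1 phase, was higher by 0.61 on the log2 scale. Eomes, another gene of the primitive streak, went against T, with 61 and 81 counts in untreated and 152 and 134 in wild-type libraries (log2 fold change 1.02, edgeR adjusted p = 0.000705). Of the genes that Tcf7l1 represses, Tfcp2l1 (0.78) and Nanog (0.46) were higher, Klf2 (-1.16) was lower and Esrrb (-0.08) did not pass.

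Among the wider genes named for this comparison, DESeq2 did not call Wnt3a, Dvl1, Dvl2, Tnks, Tle2 or Apcdd1, and edgeR without the filter on low counts did not call Dvl2, Tnks, Tle2 or Apcdd1. Single libraries decided some calls as well: edgeR's adjusted p was 0.0648 for Wnt3a and 0.0853 for Dact2 without the second wild-type library, and 0.280 for Tnks without the first. For Dvl1 it was 0.140 and 0.166 without the first or the second wild-type library, and for Dvl2 0.0626 without the second untreated and 0.370 without the second wild-type library. For Tle2 it was 0.101 and for Apcdd1 0.0756 without the first untreated library, and 0.185 and 0.137 without the first wild-type one. Of 7 tested feeder markers 4 were lower in wild-type cells and 1, Postn, higher, beside 30.7% lower and 29.9% higher of all genes tested. With so many genes called, nothing is read from the counts of markers. Of the 8 mESC markers 5 were higher and 1 lower, and their summed level was 6875 and 6967 CPM in wild-type against 4003 and 4571 in untreated libraries. The part of either cell population in the Wnt values was not tested.

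**Figure D4:**
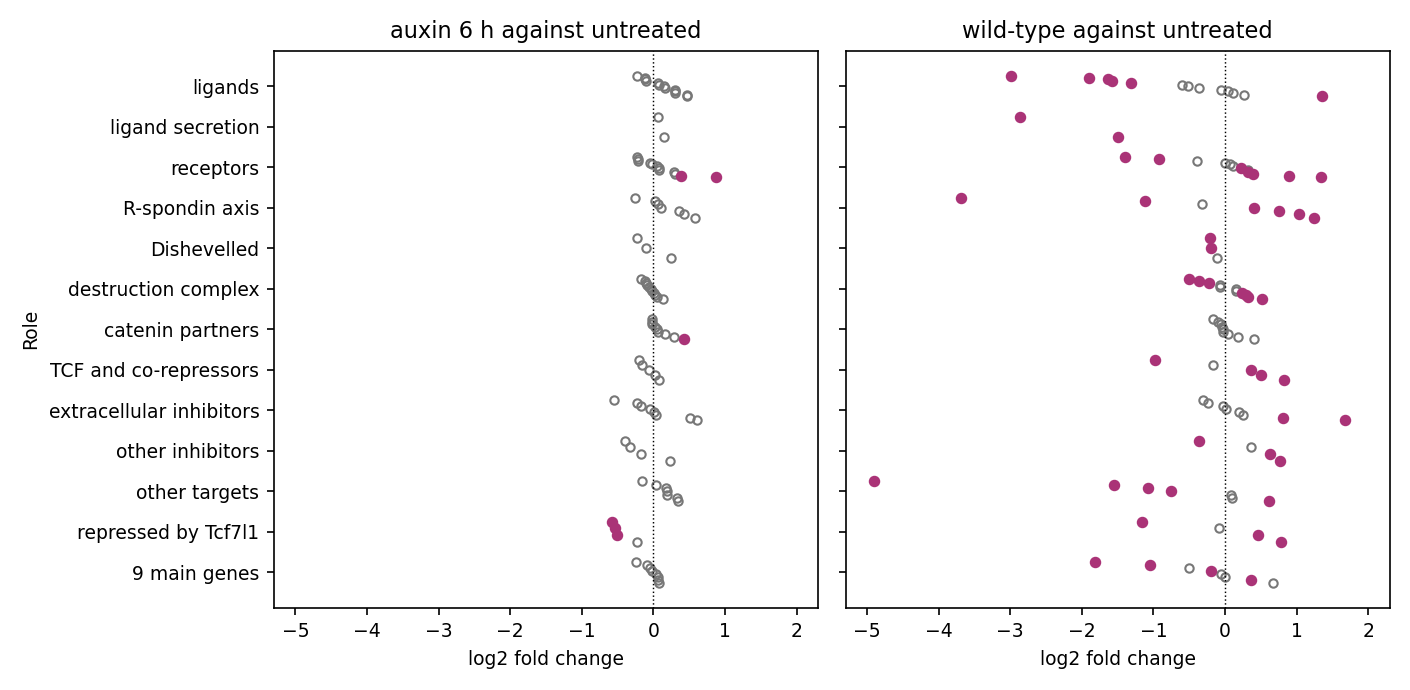
Log2 fold changes, relative to the typical gene, of every tested gene of the wider Wnt list by role, with the 9 genes of the main set at the bottom; each point is a gene and filled points passed the edgeR test at an adjusted p under 0.05. With auxin (left) 6 of the 85 wider genes are filled, beside 4.20% of all genes tested, and 3 of them are among the genes repressed by Tcf7l1. In wild-type against untreated cells (right) 47 are, beside 60.6% of all genes tested, with T, Rspo3 and Wnt8a farthest below 0.

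The profiles of the members over the 6 libraries were also set against those of every gene that averaged 100 counts or more, by the distance between log2 CPM values centred on each gene's mean. Nearest to Ctnnb1 stood Cab39 (distance 0.045), to Tcf7 Slc30a5 (0.040), to Tcf7l1 Psmb2 (0.047) and to Axin2 Nabp1 (0.086). Nkd1 lay closest to Tanc2 (0.093), Lef1 to Ccdc73 (0.12), Sp5 to the gene model Gm7367 (0.24) and Dkk1 to Col13a1 (0.32). Lef1, Sp5, Dkk1 and Lgr5 averaged fewer counts and could not be a neighbour of another member. With 6 libraries and about 10969 genes to choose from such neighbours are a description only.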

How the data were processed

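PolyA RNA was sequenced as paired reads. Per the submitters' processing notes and the paper's methods, the authors aligned the reads to mm10 with HISAT2 2.1.0 and counted them on GENCODE genes with Salmon and HTSeq; the strand setting is not given in the sources used here. The deposited values are whole-number counts per gene, not normalized, in a table of the degron libraries and a table of the wild-type libraries. The authors' own DESeq2 columns (fold changes, p-values) were not used, nor were 2 columns of per-sample values that matched no sample.

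Each comparison was fitted on its own 4 libraries with edgeR 4.0.16 (limma 3.58.1, R 4.3.3): TMM scaling, filterByExpr with a minimum count of 10, glmQLFit and glmQLFTest, and Benjamini-Hochberg adjustment over all genes tested. The threshold for a call was an adjusted p under 0.05. Levels in CPM and RPKM used TMM factors over all 6 libraries and the union of GENCODE exons. The study's methods describe the replicates of its sequencing experiments as biological, while the labels do not name separate cultures, so intervals and p-values measure the spread between these libraries; counting intervals cover counting error only. The 9 genes, the gene lists, the tests and the rule for named genes were chosen with earlier results of these data known. By that rule all 9 members were named, with every listed gene called in the auxin comparison, the 2 with the smallest p per role and direction in the wild-type comparison, and the nearest profile of each member with a mean of at least 10 counts. Alternatives were DESeq2 1.42.0, its size factors in edgeR, library totals, scaling to 13 mitochondrial mRNAs, dropping the filter or asking for 10 counts or more in each library, robust dispersion, a block for the replicate number, 1 fit of all 3 groups, a prior count of 5 and each library left out in turn, where the lone library of a group was assumed to vary like the others. Tested on simulated data for the auxin comparison (16054 genes), the procedure called 56 of 100 genes changed by 0.5 and 80 of 100 changed by 1 on the log2 scale, with 11 false calls. For the wild-type comparison (15601 genes) it called 56 and 87 of 100, with 4 false calls. The simulation gave genes of like level the same spread, equal in both groups, and drew the changed genes at random from those that pass the filter. Its rates may therefore differ from those in the data and for the 9 genes.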

Additional observations from a re-analysis of the deposited data

How the results depend on the processing

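With auxin no member was called under any of the 13 alternatives, and the call counts of the whole comparison moved. As reported they were 677 genes in all and 6 of the wider Wnt list. These became 236 and 3 with DESeq2, 219 and 3 with mitochondrial scaling, and 55 and 1 without the filter, and in all 432 with at least 10 counts in every library and 1235 with all 3 groups in 1 fit. Leaving out 1 library gave 179 to 2724 genes in all and 2 to 25 of the wider list, with the highest without the first untreated library and the lowest without the second auxin-treated one. The 2 untreated libraries differed more from each other than the other pairs did. Over genes, the chi-square of their counts per degree of freedom was 5.719, against 2.306 for the auxin-treated and 2.595 for the wild-type pair. The causes of the moves in the call counts were not tested. Small log2 changes of members turned sign without any passing: Tcf7l1 to 0.00042 with library totals, and with mitochondrial scaling Ctnnb1 to -0.10, Axin2 to -0.10, Lef1 to -0.073 and Dkk1 to -0.13. With single libraries left out, Axin2 ran from -0.0014 to 0.12, Lef1 from -0.064 to 0.21, Tcf7l1 from -0.053 to 0.016, Sp5 from -0.57 to 0.15, Nkd1 from -0.23 to 0.10 and Dkk1 from -0.77 to 0.56.

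Between wild-type and untreated cells mitochondrial scaling called 15308 genes, 83 of the wider list and 8 members, all lower, which follows from the shift of the median; Tcf7 turned to -1.73 and Dkk1 to -1.41. Axin2, near 0, turned to 0.0012 with DESeq2 and 0.0019 with all 3 groups in 1 fit, and ran from -0.11 to 0.11 with single libraries left out. Leaving out 1 library gave 7532 to 9570 genes, 37 to 54 of the wider list and 3 to 5 members. Besides mitochondrial scaling, Ctnnb1 was called lower (-0.10, edgeR adjusted p = 0.00822) without the second untreated library.

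The same replicate numbers occur in each group, and whether they pair the samples is not given in the sources used here. Differences between replicates correlated at r = 0.10 between untreated and auxin-treated and -0.040 between untreated and wild-type libraries over 12416 genes, with 2 pairs each. With the replicate number as a block, 1930 genes and 15 of the wider list were called with auxin and 0 members. In the wild-type comparison the block called 9689 genes, 47 of the wider list and 4 members. Members with few counts (Sp5, Dkk1, Lgr5) are limited by depth.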
